A study of Mus musculus with 6 samples.

Results

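The semaphorins, plexins and neuropilins were described in ribosome-bound RNA of cortical cells that express S100a10, from mouse. The genes were chosen by name: every probe set annotated to a single symbol that starts with Sema3 to Sema7 or with Plxn, or that is Nrp1 or Nrp2. This gave 79 probe sets for 32 of the 18193 genes on the array: 20 semaphorins (the ligands), 9 plexins and 2 neuropilins (together 11 receptors), and Plxna4os1, a non-coding transcript that the reference table places within the Plxna4 gene. Each gene is given by its brightest probe set over all arrays. The data were 6 single-colour arrays, 3 from mice that drank fluoxetine (0.167 mg/ml with 1% saccharine) and 3 from mice that drank the 1% saccharine vehicle, for 15 to 18 days; fluoxetine is an antidepressant that blocks serotonin reuptake. Both groups carried the same S100a10 bacTRAP transgene (line ES691), in which cells that use the control region of S100a10 make a tagged ribosomal protein. The tag lets ribosomes of those cells be pulled from the tissue with their RNA (translating ribosome affinity purification, TRAP). The transgenic line came from FVB and had 3 to 5 generations of backcrossing on C57BL/6. Neither the sex and age of the mice nor the number of mice per sample is stated in the labels, and p-values therefore measure the spread between these samples.

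Semaphorins are guidance proteins that steer axons and dendrites and later shape synapses. Class 3 semaphorins are secreted, classes 4 to 6 span the membrane, and Sema7a is held to it by a lipid anchor. Plexins are their main signalling receptors, and most class 3 ligands need a neuropilin to bind first and hand the signal to a class A plexin. In the cortex, Sema3a acting through Nrp1 and Plxna4 promotes basal dendrite growth of deep-layer pyramidal neurons, and Sema3f acting through Nrp2 and Plxna3 limits spines on their apical dendrites.

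The labelled cells were checked against their markers on the log2 intensity scale. S100a10 itself read 14.98 to 15.17 with fluoxetine and 15.07 to 15.22 with vehicle. The 6 measured markers of cortical pyramidal neurons lay between 9.67 and 12.50 on average. Markers of other cells were also read. The 6 of inhibitory neurons lay between 8.88 and 13.79 (Gad1), and the 7 of astrocytes between 6.88 (Gfap) and 14.59 (Gja1). Probe sets differ in affinity, so these ranges do not rank the cell types. The submitters state that the line labels some non-neuronal cells. None of the 47 tested markers of all listed cell types passed limma's test. The lists furthest from 0 were meningeal and choroid plexus markers (5 of 6 higher with fluoxetine, median difference 0.53) and pericyte and smooth muscle markers (0 of 5 higher, median −0.41), and their part in the values below was not tested. In such a mixture, fewer cells of a type and less RNA per cell cannot be told apart.

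Nearly the whole family was measurable. Of the 31 coding genes, 30 reached the level used for testing, a geometric mean intensity of 50 over the 6 arrays (5.64 in log2), which 67.3% of all genes reached. These were 19 of 20 ligands and 11 of 11 receptors. Sema3g, a secreted ligand, stayed below it at 4.02 to 4.64, and so did Plxna4os1 at 2.94 to 3.48. The 19 ligand probe sets ranged from 5.82 to 12.31 in mean log2 intensity with a median of 8.51, and the 11 receptor probe sets from 6.11 to 11.14 with a median of 8.75. Probe sets differ in affinity, so these intensities do not rank RNA amounts between genes or between ligands and receptors. The lowest tested members, Sema5b at 5.82 and Plxnb3 at 6.11, lay just above the level, and Sema3g at 4.22 was the nearest below it.

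**Figure D1:**
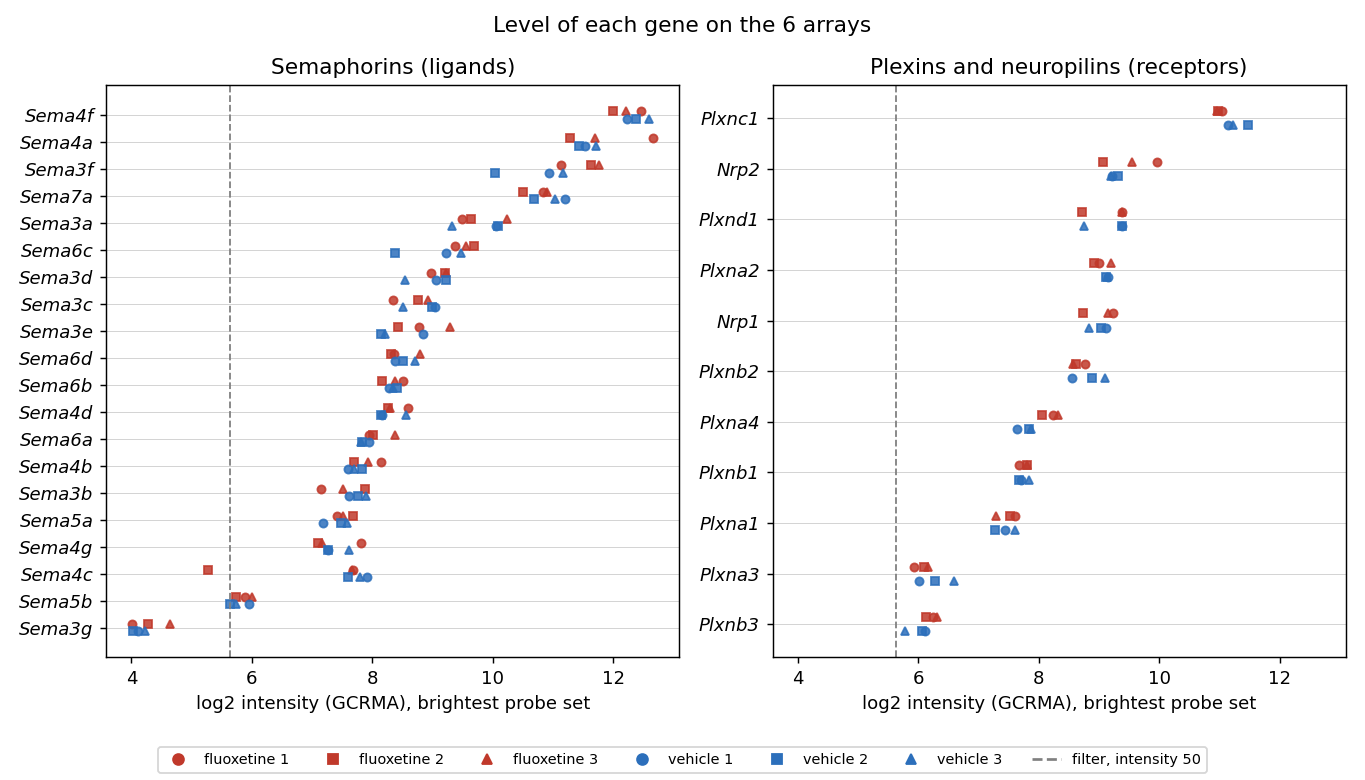
Log2 intensity of the brightest probe set of 20 semaphorin genes (left) and 11 plexin and neuropilin genes (right) on each of the 6 arrays; red symbols are fluoxetine, blue are vehicle, the shape gives the replicate and the dashed line marks an intensity of 50. Red and blue overlap for 28 of the 31 genes, and the exceptions are Plxna4, Plxnb3 and Plxnc1.

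Fluoxetine and vehicle were compared to ask whether prolonged treatment changed the translated RNA of these guidance genes. None of the 30 tested members passed limma's test at an adjusted p under 0.05, against 0% of the 22326 probe sets tested; their smallest adjusted p was 0.999. At an unadjusted limma p under 0.05 there were 2 members, Plxna4 and Sema3f, where 2.66% of 12248 tested genes reached that level (0.71% higher, 1.95% lower). Groups did not overlap for 3 of 30 members, Plxna4 and Plxnb3 higher and Plxnc1 lower, beside 8.31% of all tested genes (2.32% higher, 5.99% lower). Among ligands 11 of 19 were higher with a median difference of 0.10 in log2, and among receptors 6 of 11 were higher with a median of 0.025. Over all tested genes 31.5% were higher and the median was −0.06. The split moved with scaling: after quantile normalization and after a shift to a common median, 14 of 19 ligands and 7 of 11 receptors were higher. Without fluoxetine 1 the counts were 10 of 19 and 4 of 11, and the receptor median was −0.052.

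**Figure D2:**
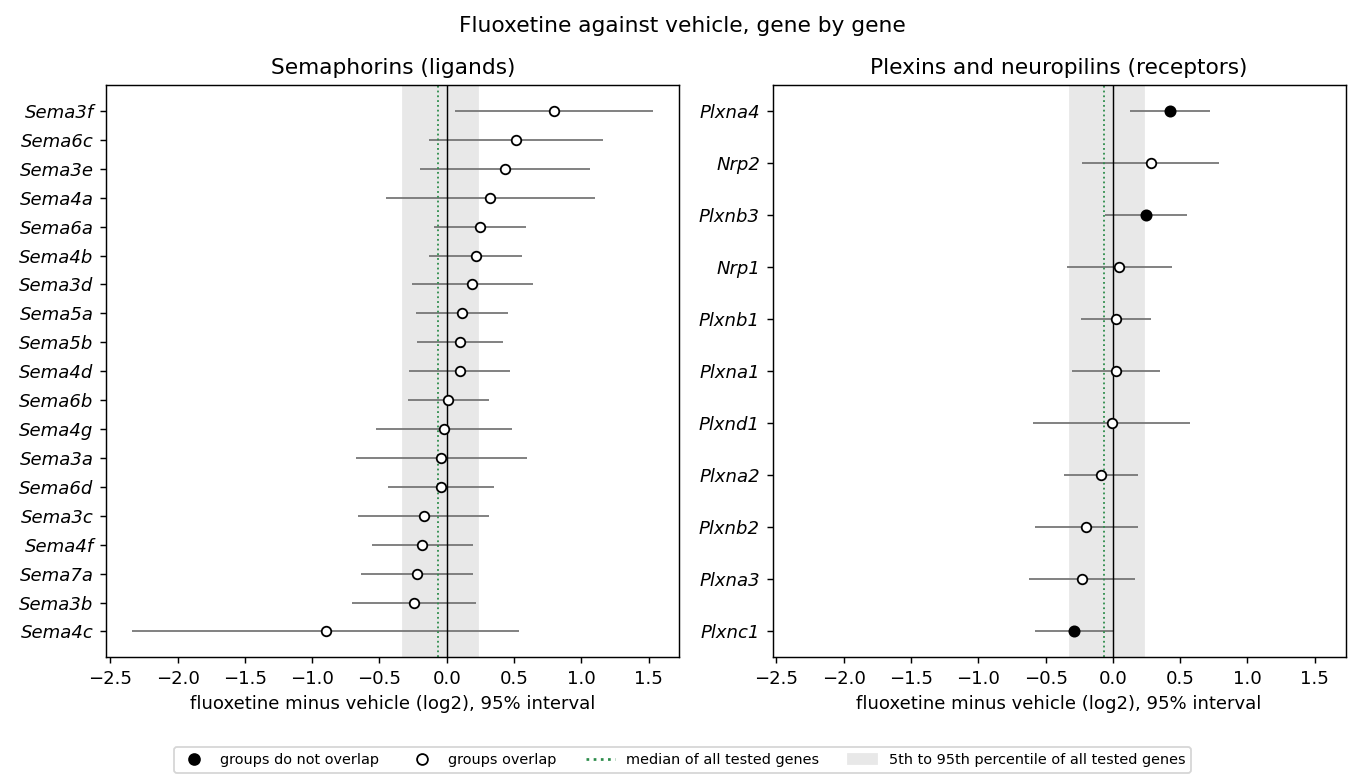
Difference of fluoxetine minus vehicle in log2 for the 19 tested semaphorin genes (left) and 11 receptor genes (right), with 95% limma intervals not adjusted for multiple testing; filled points are genes whose groups do not overlap, the dotted line is the median of all tested genes (−0.06) and the grey band their 5th to 95th percentile (−0.32 to 0.23). The intervals of Plxna4 and Sema3f lie above 0, and those of the other 28 genes include it.

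Plxna4, the class A plexin that serves Sema3a with Nrp1 and binds class 6 semaphorins directly, had the smallest unadjusted p of the family. In log2 intensity the fluoxetine arrays read 8.24, 8.06 and 8.32, and the vehicle arrays 7.64, 7.84 and 7.87. Every fluoxetine array lay above every vehicle array. The difference was 0.42 ± 0.13 (log2, SE, n = 3 each), a fold of 1.34, with a limma adjusted p of 0.999. Leaving out any single array kept it between 0.35 and 0.49. The other Plxna4 probe set stayed below the testing level, at 5.26, 3.76 and 5.10 with fluoxetine and 4.31, 4.18 and 4.38 with vehicle. Its groups overlapped because fluoxetine 2 read lowest of all arrays. Plxna4os1 read 3.15, 3.29 and 3.48 against 3.06, 2.94 and 3.09. Its groups did not overlap, as was the case in the same direction for 36.4% of all probe sets below the testing level.

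The other class A plexins had groups that overlapped on their brightest probe sets. Plxna1, a receptor of Sema3 ligands and of Sema6d, measured 7.47 ± 0.16 against 7.45 ± 0.17 (fluoxetine first; log2, SD, n = 3 each). Plxna2, a receptor of class 6 ligands and of Sema5a, measured 9.04 ± 0.14 against 9.13 ± 0.02, a difference of −0.09 that was −0.028 without fluoxetine 2, −0.17 without fluoxetine 3 and −0.29 when its 4 tested probe sets were averaged. Plxna3, the partner of Nrp2 in Sema3f signalling, measured 6.07 ± 0.12 against 6.29 ± 0.29, a difference of −0.23 ± 0.17 (SE) that was −0.077 without vehicle 3 and −0.37 without vehicle 1. The direction for Plxna1 turned without fluoxetine 1 (−0.040) and without vehicle 2 (−0.058).

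Among class B plexins, which bind class 4 semaphorins, Plxnb3 had groups that did not overlap. Plxnb3, a receptor of Sema5a, read 6.25, 6.14 and 6.32 with fluoxetine and 6.11, 6.06 and 5.79 with vehicle. The gap between the closest arrays was small beside the distance of vehicle 3 from the other vehicle arrays. The difference was 0.25 ± 0.13 (log2, SE, n = 3 each; limma adjusted p = 0.999), and 0.15 without vehicle 3. By the suffix of its name this probe set can match several genes, and its other probe set was near the floor at 2.76 to 2.78. Plxnb1, the main Sema4d receptor, measured 7.77 ± 0.08 against 7.74 ± 0.09 (SD), a difference of 0.026. Plxnb2, a receptor of Sema4c and Sema4d, read 8.77, 8.62 and 8.58 against 8.56, 8.89 and 9.11. Its difference was −0.20 ± 0.16 (SE), with −0.068 without vehicle 3, the highest array, and −0.35 without vehicle 1, the lowest.

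Plxnc1, the plexin that binds Sema7a, was the receptor whose groups stood apart in the lower direction. It measured 11.04, 10.98 and 10.97 with fluoxetine and 11.15, 11.47 and 11.23 with vehicle. All fluoxetine arrays lay below all vehicle arrays, and the fluoxetine arrays spread far less (SD 0.04) than the vehicle arrays (SD 0.17). The difference was −0.29 ± 0.12 (log2, SE, n = 3 each; limma adjusted p = 0.999), a fold of 0.819, and between −0.36 and −0.20 without any single array. The other tested Plxnc1 probe sets were lower by −0.189 ± 0.158 and −0.412 ± 0.561 (SE), with groups that overlapped. Below the testing level, Plxnc1 probe sets differed by 0.506 and 0.112 without overlap and by −0.648 with overlap. Of all probe sets below that level, 36.4% were higher without overlap. Plxnd1, which binds Sema3e without a neuropilin, read 9.39, 8.73 and 9.38 with fluoxetine and 9.38, 9.39 and 8.76 with vehicle. In each group 1 array lay well below the other two, and the difference was −0.009 ± 0.25 (SE), or 0.21 without fluoxetine 2.

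The neuropilins bind class 3 semaphorins and also vascular endothelial growth factors. Nrp2, which prefers Sema3f, read 9.96, 9.08 and 9.55 with fluoxetine and 9.22, 9.32 and 9.21 with vehicle. Fluoxetine held both the highest and the lowest reading, and its SD was 0.44 against 0.06 for vehicle. The difference of 0.28 ± 0.22 (log2, SE, n = 3 each) became 0.064 without fluoxetine 1 and 0.51 without fluoxetine 2, the low array. Nrp1, which prefers Sema3a, measured 9.04 ± 0.27 against 8.99 ± 0.15 (SD), with fluoxetine 2 lowest at 8.73, and turned to −0.052 without fluoxetine 1 and −0.032 without vehicle 3.

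Some astrocyte markers were high on the same arrays as Nrp2, fluoxetine 1 and 3, and others were not. Of the 7 astrocyte markers listed all 7 were tested, their mean lay between 9.64 and 11.27 with fluoxetine and between 9.72 and 9.96 with vehicle, and none was at 0. Gfap, the astrocyte filament protein, read 12.13, 4.49 and 9.02 with fluoxetine and 4.71, 5.24 and 5.67 with vehicle. Only fluoxetine 1 and 3 carried Gfap past the testing level of 5.64, and its other readings lay near or below that level. Aqp4, the astrocyte water channel, read 9.69, 7.44 and 9.11 against 8.02, 8.20 and 8.04. Gja1, an astrocyte gap junction protein, did not follow this order, with 14.48, 14.59 and 14.45 against 14.48, 14.74 and 14.77. Sox9, a glial transcription factor, read 8.89, 8.74 and 8.68 against 8.17, 8.16 and 8.23, so that fluoxetine 2 was above all vehicle arrays. Aldh1l1 read 11.184, 10.231 and 10.796 against 10.605, 10.866 and 10.459. Slc1a3 read 10.492, 10.047 and 10.470 against 10.225, 10.530 and 10.314. S100b read 12.055, 11.913 and 11.916 against 11.816, 11.990 and 11.804. The part of these markers in the Nrp2 values was not tested.

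**Figure D3:**
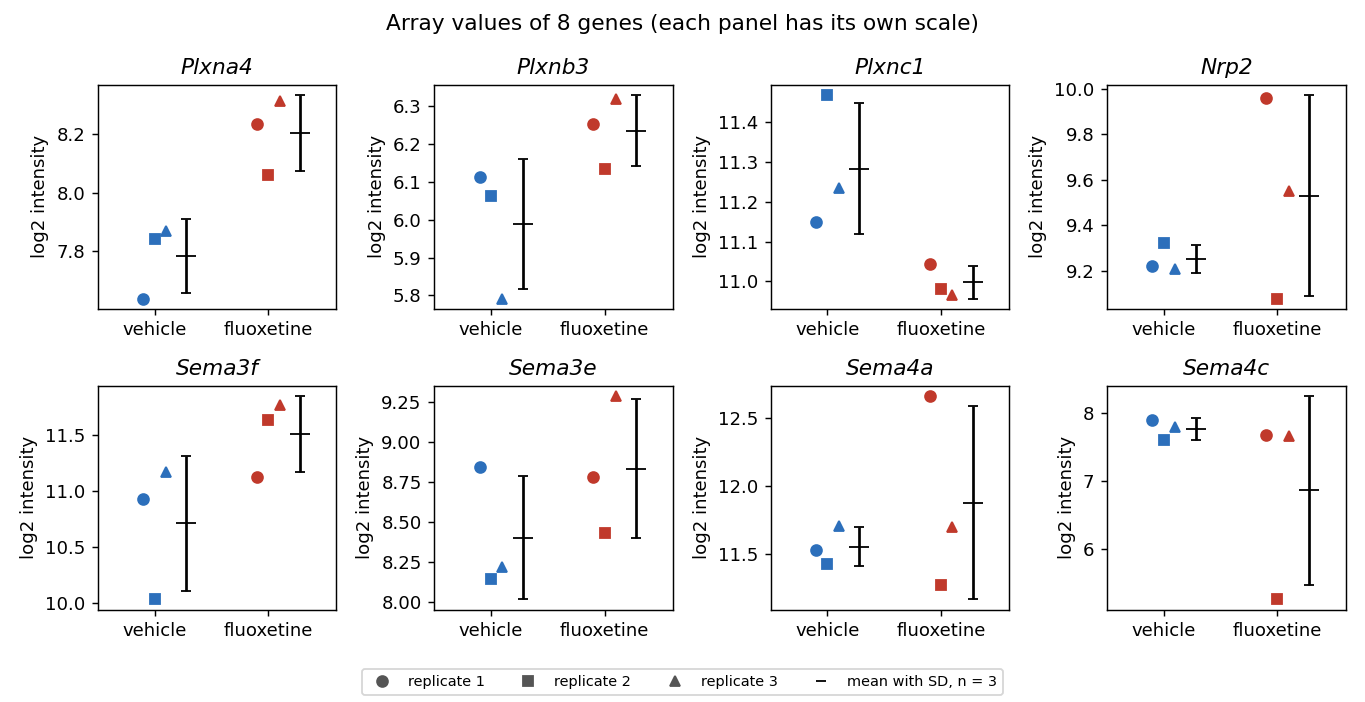
Log2 intensity of 8 genes on each vehicle array (blue) and fluoxetine array (red), each panel with its own scale; symbol shapes mark the replicate and bars the mean with SD (n = 3). Plxna4 and Plxnb3 are higher and Plxnc1 is lower on all fluoxetine arrays, while the Sema4a and Sema4c differences come close to 0 without a single fluoxetine array.

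Sema3f, a secreted repellent that trims spines through Nrp2 and Plxna3, had the largest positive difference among the ligands. It read 11.13, 11.64 and 11.77 with fluoxetine and 10.93, 10.03 and 11.17 with vehicle. Fluoxetine 1 lay below vehicle 3, so the groups overlapped, and vehicle 2 stood well below every other array. The difference was 0.80 ± 0.31 (log2, SE, n = 3 each; limma adjusted p = 0.999), a fold of 1.74, and was 0.46 without vehicle 2. By the suffix of its name, this probe set can match several genes. The other Sema3f probe sets lay below the testing level, at means of 5.54 and 3.70, with differences of 0.22 and 0.06.

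Sema3e, the ligand of Plxnd1, was higher by similar amounts on both tested probe sets. The brighter read 8.78, 8.43 and 9.29 with fluoxetine and 8.84, 8.14 and 8.22 with vehicle, a difference of 0.43 ± 0.27 (SE). The other read 7.97, 7.16 and 7.64 against 7.35, 6.77 and 7.32, a difference of 0.44 ± 0.25. Both pairs of groups overlapped, and vehicle 1 read above fluoxetine 2 on each. On the brighter probe set vehicle 1 was also above fluoxetine 1, and on the other vehicle 3 was also above fluoxetine 2. Without fluoxetine 3 the brighter probe set differed by 0.20, and without vehicle 1 by 0.65.

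The remaining class 3 ligands went either way. Sema3a, the classical growth cone repellent, measured 9.79 ± 0.39 against 9.83 ± 0.43 (fluoxetine first, log2, SD, n = 3 each). Its difference of −0.04 changed sign in 8 of 19 alternative settings, several of which left all differences as reported. Sema3b measured 7.51 ± 0.37 against 7.75 ± 0.15, a difference of −0.24 that was −0.061 without fluoxetine 1 and −0.43 without fluoxetine 2. Sema3c measured 8.68 ± 0.30 against 8.85 ± 0.30, and Sema3d 9.13 ± 0.13 against 8.94 ± 0.35. The order of genes in the reference table puts Sema3d next to Sema3a with 0 protein-coding genes between them, Sema3e 3 such genes further on and Sema3c another 15 away. Along this cluster the differences were 0.19, −0.04, 0.43 and −0.17. Sema3a turned to 0.029 after quantile normalization, where Sema3d, Sema3a and Sema3e were then all above 0, and Sema3c lay between −0.34 and −0.005 without each array in turn. Sema3b and Sema3f are separated by 3 protein-coding genes and differed by −0.24 and 0.80.

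The class 4 ligands Sema4f and Sema4a were read on the brightest ligand probe sets. By the suffix of their names, both of these probe sets can match several genes. The other tested probe set was dimmer for each, at a mean of 8.735 for Sema4f and 9.051 for Sema4a. Their differences were −0.018 and 0.366. Sema4f, which is found at synapses, read 12.454, 12.001 and 12.202 with fluoxetine and 12.229, 12.374 and 12.595 with vehicle. The groups overlapped (difference −0.18 ± 0.16, SE), and the difference was −0.071 without fluoxetine 2, −0.082 without vehicle 3 and −0.30 without fluoxetine 1. Sema4a, which also acts on immune cells, read 12.66, 11.27 and 11.70 against 11.53, 11.42 and 11.71. Fluoxetine 1 stood far above all other arrays and fluoxetine 2 below them. Gfap, Aqp4 and Aldh1l1 above were also highest on fluoxetine 1 and lowest on fluoxetine 2. Slc1a3 was lowest on fluoxetine 2 but highest on vehicle 2. Sox9 and S100b were highest on fluoxetine 1 but not lowest on fluoxetine 2, and Gja1 was neither. The part of these markers was not tested. Sema4a differed by 0.33 ± 0.33 (SE), by −0.068 without fluoxetine 1 and by 0.63 without fluoxetine 2.

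Sema4c, a Plxnb2 ligand, had the largest negative difference of the family and the least certain. It read 7.68, 5.27 and 7.66 with fluoxetine and 7.91, 7.60 and 7.79 with vehicle. Fluoxetine 2 alone was low, and the other fluoxetine arrays lay within the vehicle range. The difference of −0.90 ± 0.61 (log2, SE, n = 3 each) was −0.099 without that array. Sema4b measured 7.92 ± 0.23 against 7.71 ± 0.12 (SD), a difference of 0.21 that was 0.10 without fluoxetine 1 and 0.33 without fluoxetine 2. Sema4d, a Plxnb1 ligand made by oligodendrocytes among other cells, measured 8.38 ± 0.18 against 8.29 ± 0.23, and Sema4g 7.36 ± 0.39 against 7.38 ± 0.20. On fluoxetine 2, where Sema4c was low, the mean of the 5 oligodendrocyte markers with a probe set was also lowest, in a range of 8.87 to 9.58 with fluoxetine and 9.44 to 9.58 with vehicle. Among these markers Mobp was lowest on vehicle 3 instead, at 7.79, against 7.96 on fluoxetine 2. The means of the inhibitory neuron, astrocyte and oligodendrocyte precursor lists were also lowest on fluoxetine 2, at 10.25, 9.64 and 7.43. Those of the other lists were not. None of the 5 oligodendrocyte markers was at 0 and 4 of them were tested. The part of any marker list in the Sema4c reading was not tested.

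Class 5 ligands, which carry thrombospondin repeats, had overlapping groups too. Sema5a measured 7.53 ± 0.13 against 7.42 ± 0.21 and Sema5b 5.87 ± 0.13 against 5.77 ± 0.17 (log2, SD, n = 3 each). Among class 6 ligands, which bind class A plexins directly, Sema6c read 9.37, 9.70 and 9.55 with fluoxetine and 9.22, 8.38 and 9.47 with vehicle. As for Sema3f, vehicle 2 was the low array, and the difference of 0.52 ± 0.28 (SE) was 0.19 without it. Sema6a measured 8.11 ± 0.23 against 7.86 ± 0.08 (SD), a difference of 0.25 that was 0.11 without fluoxetine 3. Sema6b (8.35 against 8.34) and Sema6d (8.49 against 8.53) hardly differed in their means. Sema7a, the lipid-anchored ligand, read 10.83, 10.51 and 10.91 with fluoxetine and 11.20, 10.68 and 11.04 with vehicle. Vehicle 2 lay inside the fluoxetine range, and the difference was −0.22 ± 0.18 (SE), or −0.10 without fluoxetine 2, −0.11 without vehicle 1 and −0.37 without vehicle 2.

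Several genes could be read on more than 1 probe set. Of 79 member probe sets 47 were tested, and 12 genes had at least 2 tested. In 9 of those 12 all tested probe sets had the same direction. Nrp2 did so on 3 probe sets (0.22 to 0.35) and Plxnc1 on 3 (−0.41 to −0.19), while Nrp1, Sema4d and Sema6a were mixed. Plxna2 showed the widest disagreement in size: 3 of its probe sets differed by −0.15 to −0.06, and the dimmest by −0.87 ± 0.28 (SE; limma adjusted p = 0.999). That probe set read 7.20, 7.63 and 7.04 with fluoxetine and 8.56, 7.56 and 8.34 with vehicle, so fluoxetine 2 lay above vehicle 2 and the groups overlapped. Another Plxna2 probe set had groups that did not overlap, with 8.76, 8.78 and 8.56 against 8.88, 8.82 and 8.84. Groups did not overlap for 4 of the 47 tested member probe sets, beside 8.31% of all tested genes by their brightest probe set. Of the 32 member probe sets below the testing level, 23 were higher with fluoxetine and 12 without overlap, beside 72.6% and 36.4% of all probe sets below that level.

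**Figure D4:**
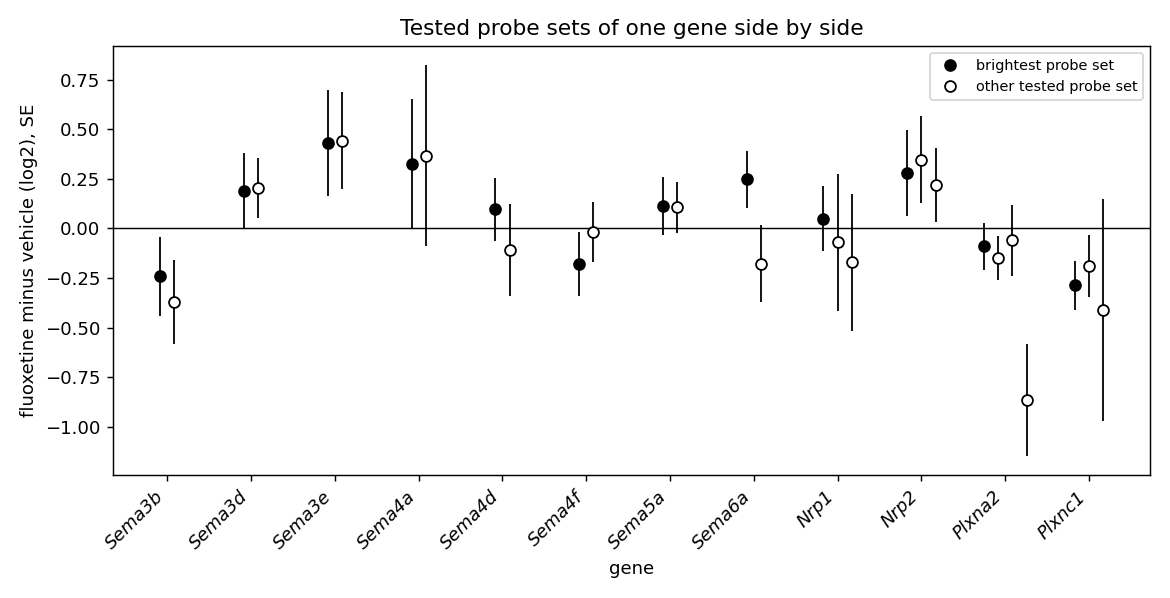
Difference of fluoxetine minus vehicle (log2, with SE) for every tested probe set of the 12 genes that had at least 2; filled points are the brightest probe set of a gene. The probe sets of Sema3d, Sema3e, Sema4a, Sema5a and Nrp2 lie close together, those of Sema6a lie on both sides of 0, and the dimmest Plxna2 probe set lies far below its companions at −0.87.

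Ligands were then set beside receptors that they are known to bind, in 16 pairs listed from general knowledge after values were seen. The differences had the same sign in 7 pairs and opposite signs in 9, and genes recur between pairs, so this is a description only. Sema7a and its receptor Plxnc1 were both lower, by −0.22 ± 0.18 and −0.29 ± 0.12 (log2, SE). Sema3f and Nrp2 were both higher (0.80 and 0.28), but on different arrays: Sema3f was highest on fluoxetine 3 and 2, and Nrp2 on fluoxetine 1 and lowest on fluoxetine 2. Sema6a and Plxna4 were both higher (0.25 and 0.42), and each was highest on fluoxetine 3. The other tested Sema6a probe set went the other way, by −0.18. Sema3e (0.43) stood against Plxnd1 (−0.009), and Sema3a (−0.04) against Plxna4 (0.42). Sema4c and Plxnb2 were both lower (−0.90 and −0.20).

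The arrays of a group differed among themselves in these genes. The median deviation of the 19 ligands from their own means was 0.06, −0.12 and 0.17 with fluoxetine and −0.06, 0.002 and 0.06 with vehicle. For the 11 receptors it was 0.14, −0.13 and 0.11 against −0.02, 0.02 and 0.05. Fluoxetine 2 was thus low and fluoxetine 1 and 3 high for both, and the fluoxetine arrays bracketed the vehicle arrays. Over all tested genes the medians were 0.02, −0.07 and −0.02 against −0.01, 0.09 and 0.02, so fluoxetine 2 was also the lowest array there. On fluoxetine 2, 7 of 19 ligands and 4 of 11 receptors had their lowest reading, beside 3950 of 12248 tested genes.

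Other genes of the pathway were taken from a list of 55 partner receptors, neuropilin ligands, GTPases and their regulators, kinases and cytoskeletal effectors, of which 48 were tested. None passed limma's test, and 2 had an unadjusted limma p under 0.05, beside 2.66% of all tested genes. Of the 48, 15 were higher and 33 lower, where 31.5% of all tested genes were higher. The median was −0.06, the same as over all genes. Groups did not overlap for 4 of the 48 (8.33%), beside 8.31% of all tested genes; these were Itga1, Itgb1, Rnd1 and Mical2. Among partner receptors and ligands, Itga1, an integrin subunit that pairs with the Sema7a-binding Itgb1, differed by 0.73 ± 0.19 (log2, SE; limma adjusted p = 0.999), Vegfb by −0.28 ± 0.20 and Cd72, an immune receptor of Sema4d, by −0.21 ± 0.14. Itgb1 itself differed by 0.12 ± 0.11. Among GTPases, Rnd1, which binds plexins and helps to start their signalling, differed by −0.59 ± 0.20 (limma adjusted p = 0.999), Rras2 by −0.23 ± 0.14 and Rnd3 by −0.24 ± 0.22. Among kinases, Limk2, which controls actin through cofilin, differed by −0.28 ± 0.14, Cdk5r1, the activator of Cdk5, by −0.23 ± 0.17 and Fyn by −0.18 ± 0.14. The collapsin response mediators and MICAL oxidases, which pass plexin signals to the cytoskeleton, lay close to 0, with Mical1 at −0.07, Mical2 at 0.05 and Dpysl3 at −0.08.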

How the data were processed

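The deposited values are probe set intensity on a linear scale, which the authors made with GCRMA; this is per the submitters' processing notes, which name no version. Per the labels' protocols, 15 ng of TRAP RNA per sample passed 2 amplification cycles. GCRMA is meant to bring the arrays' distributions close and squeezes low values towards a floor. The linear scale was inferred from the values (1.74 to 99076). Array medians lay between 47.3 and 48.6 and upper quartiles between 498.4 and 574.3, so the deposited distributions still differed in their upper part. The table held 45101 probe sets; 64 array controls were left out. Of the rest 34945 had 1 symbol, 932 several and 9160 none in the platform annotation, and all 32 member symbols matched the RefSeq table (GRCm38.p6; only names and gene order were taken from it).

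The analysis used log2 of the deposited intensity, without an offset. The 22326 probe sets with a geometric mean of at least 50 were tested, fluoxetine minus vehicle, in limma 3.58.1 (R 4.3.3; lmFit and eBayes, a two-sided test without blocking), and p-values were adjusted over all of them by Benjamini-Hochberg. The probe set with the highest mean log2 stood for its gene. The test was first tested on simulated data. The members and lists were chosen with earlier results of these data known. Array values are printed for members with an unadjusted p under 0.05 or groups that do not overlap and for the 3 brightest ligands and receptors; pathway genes named are the 3 per role with the smallest p. Other array values, the ligand-receptor pairs, Itgb1 and the markers named were chosen after values were seen. Alternatives were filters, an offset, scalings, a replicate block, variance models, array weights, probe set choices, a threshold of 0.10 and leaving out arrays. The number of arrays limits the precision.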

Additional observations from a re-analysis of the deposited data

How the results depend on the processing

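No member gene, pathway gene or other probe set passed limma's test in any of the 19 alternatives to the reported setting. The number of probe sets at an unadjusted p under 0.05 was 563 as reported and ranged from 318 without vehicle 2 to 2631 without the filter. Whether the replicate numbers pair the arrays could not be told. Same-numbered arrays correlated at −0.253, −0.027 and −0.502 in their deviations from the group means, so no positive correlation was seen. With 3 arrays per group, whose deviations offset each other, these values cannot exclude a pairing. With the replicate block 0 probe sets passed and 350 had an unadjusted limma p under 0.05. The ligand and receptor medians stayed at 0.096 and 0.025 there, because a balanced block leaves differences unchanged. Those medians moved by less than the spread between arrays (SD 0.111 and 0.108) in every alternative. That spread is wider than either median as reported, so a median could change sign within it. The receptor median fell below 0 in several alternatives. With probe sets averaged the ligand and receptor medians were 0.010 and −0.009, and after the shift to a common median 0.157 and 0.085. Without each array in turn they ranged from 0.022 to 0.108 for ligands and from −0.052 to 0.023 for receptors. With a minimum of 100, 27 members were tested. With probe sets of possible multiple matches left out, Sema3f and Plxnb3 could not be tested, and Sema4f differed by −0.018. Leaving out fluoxetine 1 and vehicle 2 together was chosen after earlier results were seen.

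Of 30 members 17 kept their direction in every alternative that could be run, among them Plxna4, Plxnb3, Plxnc1, Sema3f and Sema3e. Several alternatives left every tested member's difference as reported: the filter changes, the replicate block, the variance model, the choice by linear mean and the threshold of 0.10. Only the remaining alternatives bear on direction, and not all of these do so for every gene. For Plxna4, Plxnb3 and Plxnc1, whose groups do not overlap, the offset, array weights and leaving out arrays could not turn the direction. Averaging probe sets could not change genes with a single tested probe set, among them Plxna4, Plxnb3 and Sema3f. The direction of 13 turned somewhere, and apart from Sema3c, Sema3d, Sema4a and Sema5a these differed by less than 0.10 as reported. After quantile normalization Plxnd1 was 0.051, Sema3a 0.029, Sema4g 0.011 and Sema6d 0.011. After the shift to a common median they were 0.051, 0.020, 0.040 and 0.019. With array weights Plxna1 was −0.018, Plxnd1 0.002, Sema3a 0.039 and Sema6d 0.079. With probe sets averaged Nrp1 was −0.063 and Sema4d −0.006. Without both fluoxetine 1 and vehicle 2, Nrp1 was −0.031, Plxna1 −0.122, Sema3a 0.244, Sema3c 0.070, Sema4a −0.133, Sema4d −0.075, Sema6b −0.038 and Sema6d 0.013. Without each array in turn, Nrp1 ranged from −0.052 to 0.203, Plxna1 from −0.058 to 0.112, Plxnb1 from −0.006 to 0.077, Plxnd1 from −0.218 to 0.211, Sema3a from −0.289 to 0.112, Sema3d from −0.007 to 0.329, Sema4a from −0.068 to 0.627, Sema4d from −0.006 to 0.228, Sema4g from −0.247 to 0.108, Sema5a from −0.002 to 0.197, Sema6b from −0.070 to 0.104 and Sema6d from −0.194 to 0.048. The cause of these turns was not tested.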
